A study of Mus musculus with 14 samples.

Results

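The genes studied were 10 myeloid chemokines, the 7 CC chemokines Ccl2, Ccl3, Ccl4, Ccl5, Ccl6, Ccl7 and Ccl9 and the 3 CXC chemokines Cxcl2, Cxcl10 and Cxcl16, in a table of 17890 mouse genes. They were given by name, with earlier results of these data known, and all 10 were in the table and passed the filter on low counts. The cells were labelled bone marrow-derived macrophages, that is, marrow progenitors grown for 7 days with the growth factor M-CSF in medium with 5 mmol/L glucose. The mice were C57BL/6J males of 8 weeks when allocated. The diabetic group had been injected with streptozotocin, which kills pancreatic beta cells, at 42 to 45 mg/kg per day over 5 days after a fast of 12 h, had a blood glucose above 16.9 mmol/L and was kept hyperglycaemic for 6 weeks. The control group was described as healthy, and no vehicle injection is given for it. The table holds 4 libraries with the letter D and 4 with the letter M. The letter D begins the word diabetic. M is explained by no label and was taken as the healthy group because that group alone remained. Directions are stated for D against M, and a swap of the letters would invert them. The other 6 samples, 3 per group of a second culture phase, were not analysed here.

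Chemokines are small secreted proteins that guide leukocytes through G protein-coupled receptors. CC chemokines carry their first pair of cysteines side by side, and in CXC chemokines another residue parts them. In marrow and in macrophages, CCR2 ligands mobilise monocytes, CCR1 ligands act on monocytes, T cells and osteoclast precursors, CXCR2 ligands draw neutrophils and CXCR3 ligands draw activated T and NK cells. Many are encoded side by side, and transcription factors of the NF-kB and interferon pathways are textbook regulators of several of them.

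The class-defining cysteines can be read in the coding sequence of each member. The stretches shown are 30 bases of the first coding transcript in GENCODE M21 (build GRCm38), read on the coding strand, with the 2 cysteine codons in capitals. Those of 2 neighbouring pairs of genes, whose ratios are compared below, and of 2 CXC genes are given as examples.
Ccl2: ccactcaccTGCTGCtactcattcaccagc
Ccl7: gcatccacaTGCTGCtatgtcaagaaacaa
Ccl6: tcttcagacTGCTGCttctcttatgccaca
Ccl9: tcttcagatTGCTGCctgtcctataactca
Cxcl10: acggtccgcTGCaacTGCatccatatcgat
Cxcl16: gctggaagtTGTtctTGTgatcgtaccatt
They were located as the first cysteine codons after codon 20 that stood side by side (CC genes) or with 1 codon between them (CXC genes), and each member had such a pair. The cysteine pair was in exon 2 of 8 members and in exon 3 of Ccl6 and Ccl9. Over the aligned coding bases, gaps left out, Ccl6 and Ccl9 were 70.5% identical, Ccl3 and Ccl4 69.6%, and Ccl2 and Ccl7 69.1%. Over whole transcripts, untranslated parts included, the longest run of bases that any of the 21 pairs of CC members shared was 25, in Ccl6 and Ccl9.

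Of the members, 8 lie on chromosome 11 and 2 on chromosome 5, here with GRCm38 coordinates. Ccl2 (NCBI gene 20296, chr11:82035577-82037452) lies 8.3 kb before Ccl7 (gene 20306, chr11:82045712-82047525). Ccl5 (gene 20304, chr11:83525778-83530518), Ccl9 (gene 20308, chr11:83572917-83578636), Ccl6 (gene 20305, chr11:83587886-83593087), Ccl3 (gene 20302, chr11:83647843-83649378) and Ccl4 (gene 20303, chr11:83648624-83664683) form a second group. The table holds Ccl4 only as a predicted transcript whose gene model overlaps Ccl3 by 755 bp on the other strand. Whether counting used strand is not given in the sources used here, so the reads of Ccl3 and Ccl4 may be partly shared and both levels are uncertain. Cxcl16 (gene 66102, chr11:70454389-70459984) overlaps Zmynd15 by 552 bp and has 2 identical entries in the table, which were summed. Cxcl2 (gene 20310, chr5:90903899-90905938) and Cxcl10 (gene 15945, chr5:92346638-92348889) stand apart from each other.

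Totals ran from 19048195 to 20027967 estimated counts per library. Whether libraries of a group are separate animals is not stated, so the p-values cover only the spread between libraries, which may be technical. Marker genes of 13 cell types were summed to check the cell label. Macrophage markers reached 9011 to 14291 CPM (counts scaled to library size) in the D and 6484 to 7372 CPM in the M libraries, with 8 of 12 members higher in D. Most of that sum was Lyz2 (8145 and 4606 CPM, D and M means) and Itgam (2410 and 1886 CPM). Both are also expressed by neutrophils and monocytes, so the sum is no measure of macrophages alone. Csf1r, the M-CSF receptor, stood at 209 and 162 CPM, Cd68 at 179 and 192 CPM and Adgre1 at 87.3 and 46.7 CPM. In both groups C1qb (10.8 and 4.00 CPM), C1qa (2.00 and 0.723 CPM) and Mertk (0.739 and 1.06 CPM) had lower levels than these genes. Neutrophil markers summed to 42274 to 65571 CPM in D and 37029 to 38745 CPM in M, above the macrophage sum in every library, with 9 of 13 higher in D. RNA of neutrophil genes was thus abundant beside that of macrophage genes. Inflammatory monocyte markers (4453 to 6670 against 3552 to 3960 CPM; 5 of 8 higher), basophil and mast cell markers (703 to 1068 against 343 to 436 CPM; 6 of 6 higher), NK cell markers (71.5 to 77.6 against 41.7 to 46.3 CPM; 5 of 7 tested higher) and T cell markers (51.5 to 69.6 against 38.8 to 45.0 CPM; 4 of 8 higher) moved with the group too. B-lineage markers (63.5 to 230 against 1117 to 1468 CPM; 8 of 10 lower) and platelet markers (100.1 to 140.2 against 183 to 243 CPM; 6 of 6 lower) moved the other way. Of the remaining lists, 2 of 5 eosinophil markers were higher. Lower were 2 of 6 dendritic, 1 of 3 osteoclast and 2 of 2 stromal markers tested. None (0) of 7 erythroid markers passed, with a median of -0.49 on the log2 scale. The erythroid sums overlapped, at 1323 to 6841 CPM in D and 4508 to 7908 CPM in M. Calcr, of the osteoclast list, was the only marker at 0 in every D library. In such bulk RNA, more cells of a type and more RNA per cell cannot be told apart. The part of these cell types in the results below was not tested.

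Of the 10 members, 6 were higher in the D libraries (Ccl7, Cxcl10, Ccl6, Ccl2, Ccl5 and Ccl9), against 17.4% of the 12839 genes tested, by the quasi-likelihood test of edgeR at a Benjamini-Hochberg adjusted p of 0.05 over all genes. None (0) was lower, where 17.3% of all genes were; the count of lower members was also 0 at an unadjusted p under 0.05, with DESeq2 and with limma voom. The other 4, Ccl3, Ccl4, Cxcl2 and Cxcl16, did not pass. By class, 5 of 7 CC and 1 of 3 CXC members were higher. In 6 members every D library lay above every M library in CPM, which held for 16.3% of all tested genes. A rise of at least 2-fold was called in 5 members, against 2.3% of all tested genes. The median log2 fold change was 1.04 over the members and -0.033 over all genes tested.

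**Figure D1:**
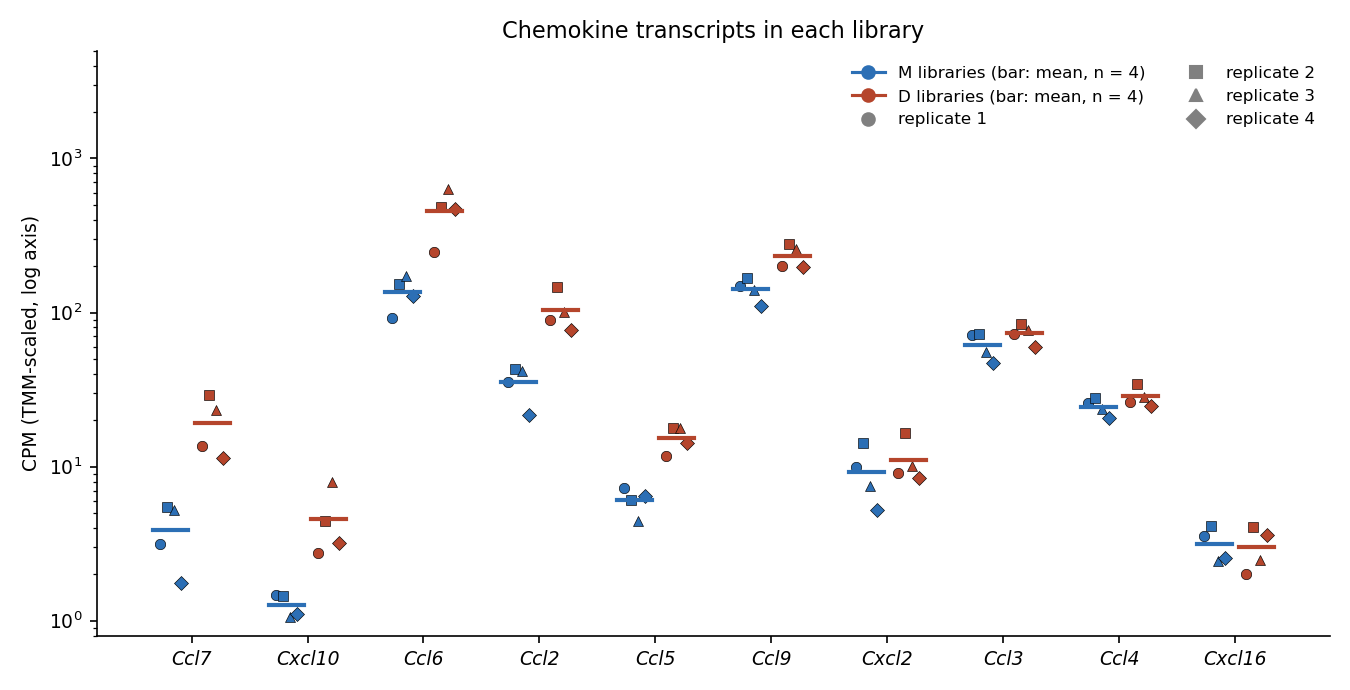
CPM of each member (log axis) in each of the 4 M (blue) and 4 D (red) libraries, with symbols for the replicate number and a bar for the group mean. Ccl7, Cxcl10, Ccl6, Ccl2, Ccl5 and Ccl9 show no overlap between groups, while Cxcl2, Ccl3, Ccl4 and Cxcl16 overlap.

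The 2 ligands of CCR2, the receptor by which inflammatory monocytes leave the marrow, were both higher. For Ccl2, the main CCR2 ligand, D replicates 1 to 4 held 89.0, 147, 100.3 and 77.4 CPM, and M replicates 1 to 4 held 35.4, 43.3, 41.7 and 21.7 CPM. The lowest D library thus lay well above the highest M library. Its log2 fold change was 1.54 ± 0.26 (SE, n = 4 per group; 2.91-fold; 95% interval 0.95 to 2.14; adjusted p = 0.00303, edgeR). Ccl7, a second monocyte chemoattractant, had 13.7, 29.0, 23.2 and 11.4 CPM in the D and 3.13, 5.45, 5.21 and 1.76 CPM in the M libraries. D replicate 2 was the highest and M replicate 4 the lowest library for both genes. The change of Ccl7, 2.31 ± 0.41 on the log2 scale (4.96-fold; 1.37 to 3.25; adjusted p = 0.00378, edgeR), was the largest of the members and the 22nd largest increase of all tested genes. It rests on 35.0 to 567 estimated counts per library. Ccl7 changed more than its neighbour: the log2 ratio of Ccl7 to Ccl2, from TPM (scaled to transcript length and library total), was -2.47 ± 0.31 (SD, n = 4) in D and -3.27 ± 0.33 in M. The difference of 0.80 had an exact two-sided permutation p of 0.0286, the smallest that 4 against 4 allows, and 0.0429 adjusted over 3 such ratios. With replicate numbers taken as pairs, an exact sign-flip test gave an adjusted p of 0.188, since 4 pairs cannot go below 0.125 unadjusted. Ccl12, which lies 54.3 kb after Ccl7 and also encodes a CCR2 ligand, was too low to test (54.0 counts over all libraries). It stood at 0.629 ± 0.419 CPM in D and 0.0747 ± 0.0866 CPM in M.

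The CCR1 ligands Ccl6 and Ccl9, rodent chemokines made by macrophages and neighbours in the genome, were also both higher in D, by unequal amounts. D replicates 1 to 4 held 247, 481, 636 and 468 CPM of Ccl6, against 92.2, 153, 172 and 128 CPM in the M libraries. Replicate 1 was the lowest and replicate 3 the highest in both groups. The log2 fold change of Ccl6 was 1.75 ± 0.30 (3.36-fold; 1.07 to 2.43; adjusted p = 0.00334, edgeR). Ccl9, also called MIP-1 gamma, had 200.3, 281, 259 and 198 CPM in D and 149, 167, 139 and 109 CPM in M. Its groups did not overlap either, but its log2 fold change was smaller, 0.73 ± 0.15 (1.66-fold; 0.40 to 1.06; adjusted p = 0.00449, edgeR). The log2 ratio of Ccl9 to Ccl6 in TPM was -2.0 ± 0.46 in D and -1.02 ± 0.45 in M, a difference of -0.98 (exact two-sided permutation p = 0.0286, the smallest possible; 0.0429 adjusted; 0.188 adjusted with the numbers as pairs). Each D library had a lower ratio than each M library, though D replicate 1 (-1.40) and M replicate 3 (-1.39) were nearly equal. Wfdc17, a whey acidic protein gene of the same region, was 1.51 ± 0.41 higher (adjusted p = 0.0219, edgeR). Its call ended with limma voom, with unfiltered log2(TPM + 1), and without D replicate 3 or M replicate 4 (adjusted p up to 0.0727 over its alternatives). Other genes near members went different ways. Taf15 was lower (-0.42 ± 0.11, adjusted p = 0.0136, edgeR), and Arrb2 (0.33 ± 0.11) and Naaa (0.30 ± 0.09) were higher. Zmynd15 and Mthfd2l did not pass, and Heatr9 and Art3 were too low to test.

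Ccl3, Ccl4 and Ccl5 are inflammatory chemokines of the second gene group on chromosome 11, and Ccl3 and Ccl5 signal through CCR1. Of these 3, Ccl5 (RANTES), a chemoattractant of T cells and monocytes, was higher. It had 11.7, 17.9, 17.9 and 14.3 CPM in D and 7.28, 6.05, 4.46 and 6.47 CPM in M. All D libraries were above all M libraries, and the log2 fold change was 1.35 ± 0.18 (2.54-fold; 0.96 to 1.73; adjusted p = 0.000404, edgeR), the lowest p among the members. Ccl3 (MIP-1 alpha) had 72.1, 83.8, 77.2 and 59.9 CPM in D and 71.3, 72.4, 55.8 and 47.2 CPM in M. Its groups overlapped, and it did not pass, at 0.25 ± 0.15 (-0.08 to 0.57; adjusted p = 0.211, edgeR). With the replicate number as a block Ccl3 passed, at 0.26 ± 0.08 (adjusted p = 0.0386), against 18.8% of all genes called higher in that fit. Ccl4 (MIP-1 beta) had 26.4, 34.6, 28.5 and 24.6 CPM in D and 25.8, 27.9, 23.6 and 20.7 CPM in M, again with overlap. Its log2 fold change was 0.22 ± 0.12 (-0.05 to 0.49; adjusted p = 0.188, edgeR). The log2 ratio of Ccl4 to Ccl3 was -1.53 ± 0.10 in D and -1.49 ± 0.13 in M, a difference of -0.04 (exact permutation p = 0.571). The upper ends of both intervals, 0.57 for Ccl3 and 0.49 for Ccl4, lay below the lower end of that of Ccl5, 0.96.

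The CXC members went their own ways. Cxcl10, an interferon-induced ligand of CXCR3, had 2.77, 4.44, 8.00 and 3.18 CPM in D and 1.47, 1.45, 1.05 and 1.10 CPM in M, that is, 21.0 to 145 estimated counts. D replicate 3 stood highest, and every D library exceeded every M library. The log2 fold change was 1.85 ± 0.34 (3.60-fold; 1.10 to 2.60; adjusted p = 0.00261, edgeR). Cxcl2 (MIP-2), a CXCR2 ligand that recruits neutrophils, had 9.16, 16.6, 10.04 and 8.49 CPM in D and 9.92, 14.2, 7.51 and 5.22 CPM in M. Replicate 2 was highest in both groups, and the groups overlapped, with M replicates 3 and 4 below every D library. It did not pass, at 0.27 ± 0.31 (-0.44 to 0.97; adjusted p = 0.535, edgeR). Cxcl16, a membrane-anchored chemokine that is shed and binds CXCR6, had 2.01, 4.03, 2.48 and 3.60 CPM in D and 3.57, 4.10, 2.45 and 2.56 CPM in M. At 40.0 to 82.3 estimated counts per library it showed no direction that held: the log2 fold change was -0.06 ± 0.25 (-0.62 to 0.50; adjusted p = 0.863, edgeR), and leaving out D replicate 1 (0.11), D replicate 3 (0.03) or M replicate 2 (0.08) turned its sign.

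**Figure D2:**
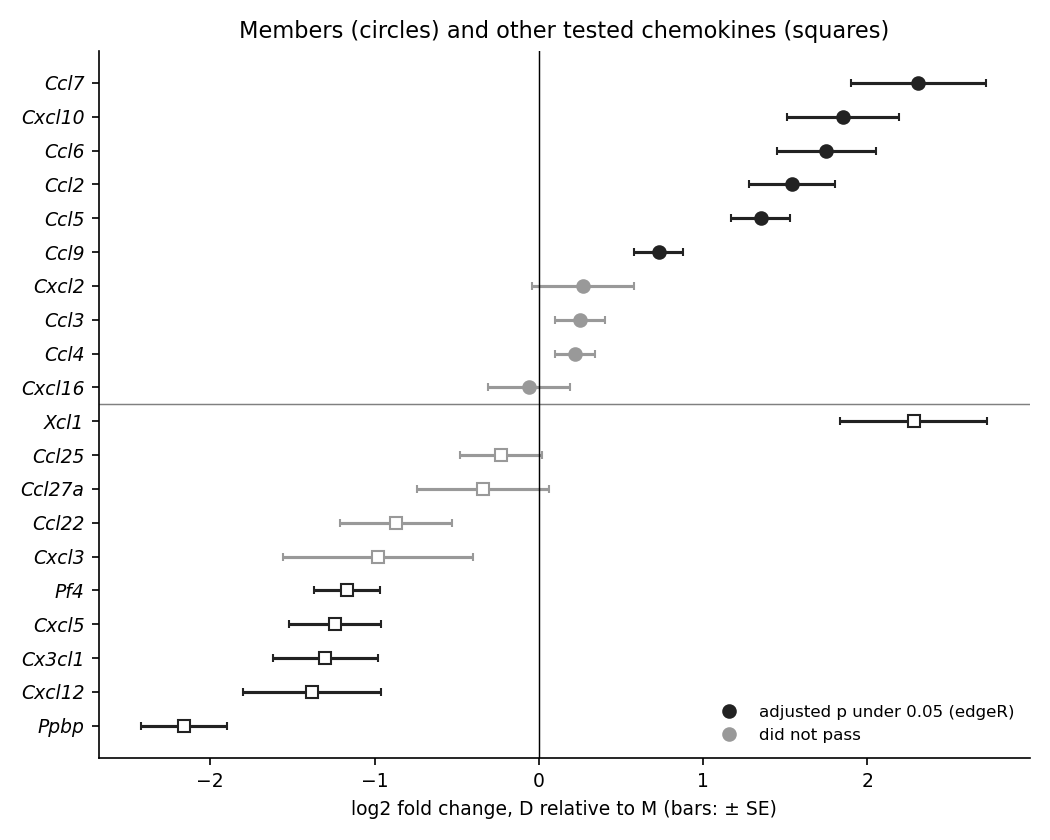
Log2 fold change, D relative to M, with its SE, of the 10 members (circles) and of 10 other chemokine genes with enough counts to test (open squares); black marks an adjusted p under 0.05. The 6 called members lie between 0.73 and 2.31, while 5 of the other chemokines lie between -2.16 and -1.17 and 1, Xcl1, at 2.28.

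The median log2 fold change of all genes was -0.14 with library totals alone and -0.11 with log2(TPM + 1), against -0.033 with TMM factors. The split of calls was 2233 higher and 2223 lower genes with TMM factors, 2413 and 2012 with the size factors of DESeq2, 2068 and 2392 with upper-quartile factors, 1524 and 3346 with library totals, and 1456 and 2961 with log2(TPM + 1), which was also tested with limma in place of edgeR. The count of higher members was 6 under each of these settings. Each of the 6 passed in all 21 alternatives to the main test, including each library left out in turn.

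Levels of different genes were compared in TPM. In the D libraries Ccl6 stood first, at 586 ± 188 TPM (SD, n = 4), 43.1% of the members' summed TPM. It was followed by Ccl2 (245 ± 76.4), Ccl3 (177 ± 25.9), Ccl9 (142 ± 25.0), Ccl4 (61.3 ± 10.2), Ccl5 (57.1 ± 10.3), Ccl7 (45.9 ± 19.7), Cxcl2 (19.2 ± 6.87), Cxcl10 (7.74 ± 3.68) and Cxcl16 (3.77 ± 1.21). Only 2 steps of that order, Ccl9 to Ccl4 and Cxcl2 to Cxcl10, had ranges over libraries that did not overlap. Ccl4 and Ccl5 were the closest neighbours, with Ccl4 above Ccl5 in 2 of 4 libraries. Among M libraries the order was Ccl6 (188 ± 50.3), Ccl3 (158 ± 29.5), Ccl9 (90.9 ± 15.0), Ccl2 (89.5 ± 25.1), Ccl4 (56.0 ± 6.66), Ccl5 (23.9 ± 4.27), Cxcl2 (16.9 ± 7.02), Ccl7 (9.87 ± 4.55), Cxcl16 (4.18 ± 1.01) and Cxcl10 (2.30 ± 0.360). There the steps Ccl3 to Ccl9, Ccl4 to Ccl5 and Cxcl16 to Cxcl10 did not overlap, and Ccl9 exceeded Ccl2 in 2 of 4 libraries. The sum of the 10 members was 1346 ± 288 TPM in D (1011 to 1631) and 640 ± 102 TPM in M (521 to 751). As shares of that sum, Ccl6 held 20.6% to 34.8% of the sum in M and 32.5% to 50.7% in D, and Ccl3 held 21.2% to 29.8% in M and 11.5% to 17.8% in D.

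**Figure D3:**
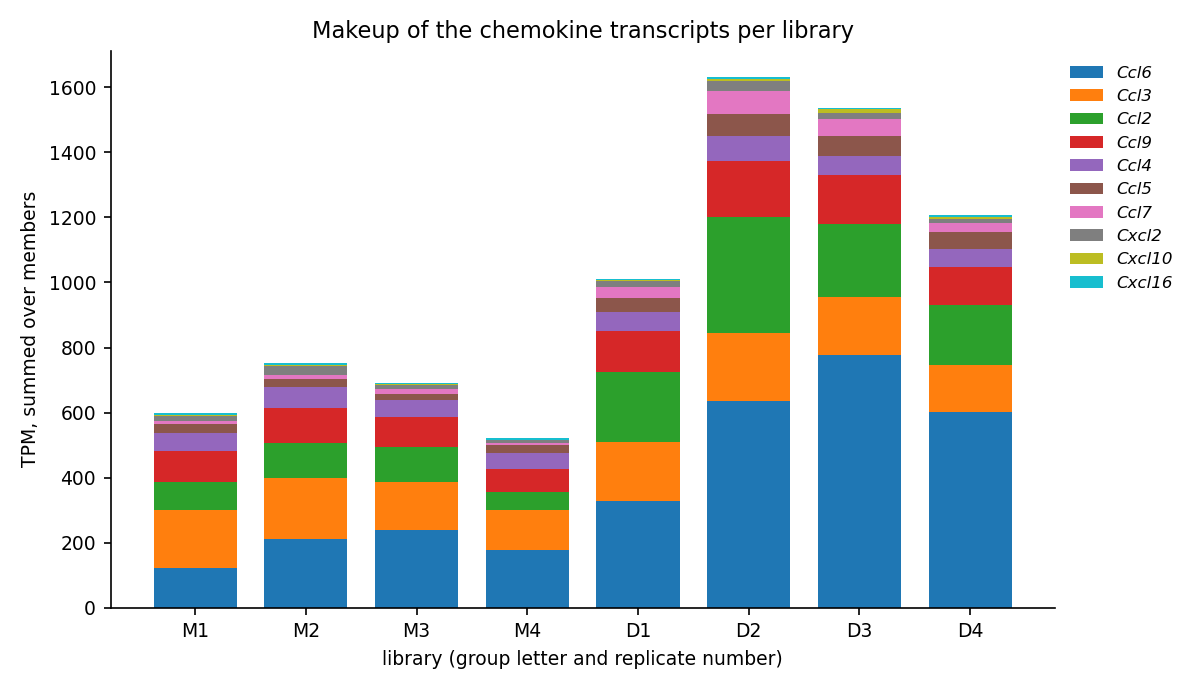
TPM of the 10 members stacked for each library (M1 to M4 and D1 to D4). The stacks reach 521 to 751 TPM in M and 1011 to 1631 TPM in D, and the Ccl6 segment is the tallest in each D library.

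Libraries with the same replicate number resembled each other across the groups in several members. Ccl2 and Ccl7 had the same order of replicates in both groups, with replicate 4 lowest, then 1, 3 and 2. Ccl6 ran from replicate 1 over 4 and 2 to 3 in both. Cxcl2, Ccl3, Ccl4 and Ccl9 each had replicate 2 highest and replicate 4 lowest in both groups. Ccl5, Cxcl10 and Cxcl16 did not share an order. Among deviations of log2 CPM from the group means over the 8 libraries, the highest correlations of the 45 pairs of members were those of Ccl4 with Cxcl2 (r = 0.96), Ccl2 with Ccl7 (0.95) and Ccl4 with Ccl9 (0.94). Ccl3 with Ccl6 was lowest (-0.05). These values describe 8 libraries that share their culture, library and depth, and they carry no test. By the same measure over 10953 genes, the most alike genes were Dab2 for Ccl2 (0.959), Rasgef1b for Ccl3 (0.982), Capn2 for Ccl4 (0.993), Tmem126b for Ccl5 (0.965), Phc3 for Ccl6 (0.997), Zfp712 for Ccl7 (0.972), Tm9sf2 for Ccl9 (0.970), Qpct for Cxcl2 (0.995), Eif4b for Cxcl10 (0.988) and Ttc28 for Cxcl16 (0.956). The second most alike were Zfp712, Layn, Nrp2, Ttc21a, Pnrc2, Mcub, Lrp1, Clec4n, Pttg1ip and Prdm1, in the same order.

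**Figure D4:**
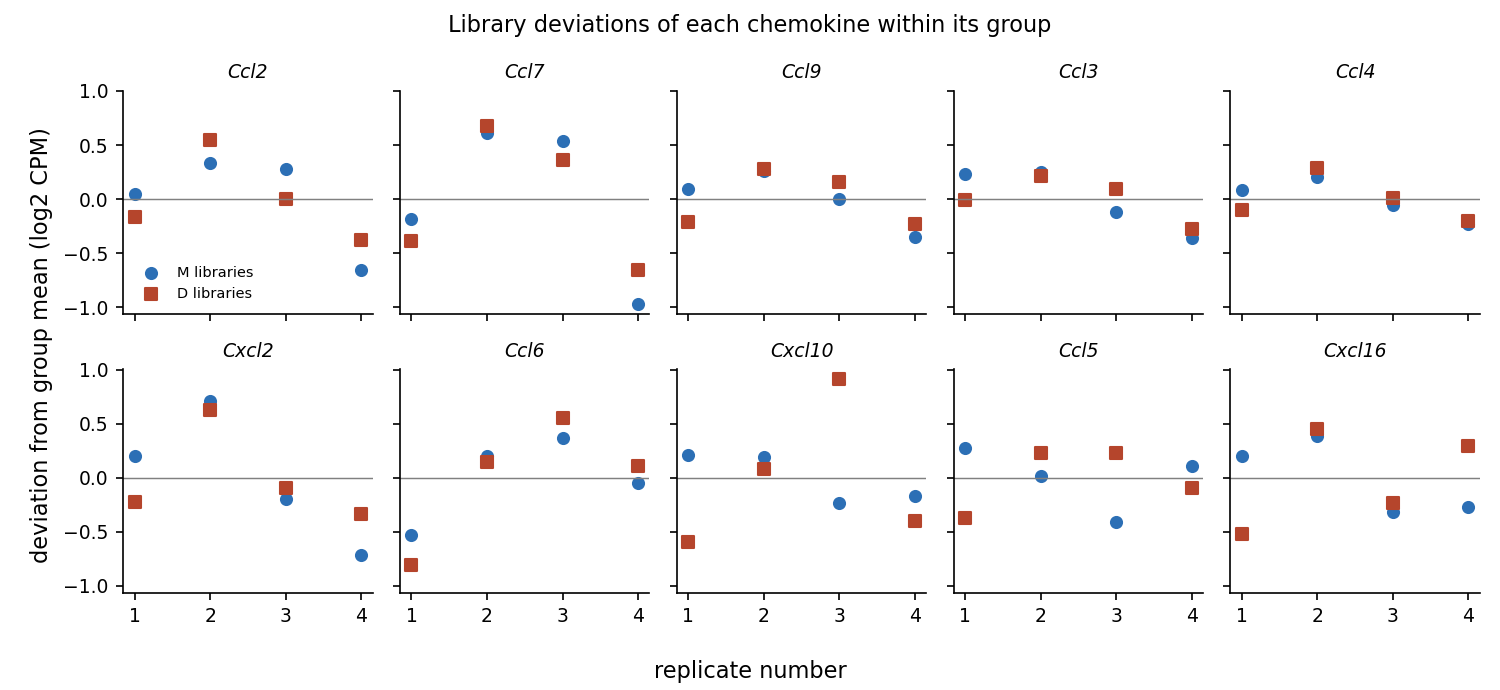
Deviation of log2 CPM from the group mean for each member, by replicate number, in M (blue circles) and D (red squares) libraries. In Ccl2, Ccl7, Ccl9, Ccl3, Ccl4 and Cxcl2 replicate 2 is highest and replicate 4 lowest in both groups, and in Ccl6 replicate 1 is lowest and replicate 3 highest.

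The sequence before the start site was available for 5 members, Cxcl2, Cxcl10, Ccl9, Ccl6 and Ccl3. It was searched on both strands for the kappaB consensus, for the core of the interferon-stimulated response element, GAAANNGAAA, and for the AP-1 motif TGANTCA. Overlapping matches of a motif were counted as 1 stretch. The 250 bases before the start of Cxcl10, Cxcl2 and Ccl6 are shown (RefSeq, GRCm38.p6, transcribed strand, matches in capitals), since Cxcl10 and Ccl6 rose and Cxcl2 did not pass.
Cxcl10 (chr5:92348890-92349139, minus strand): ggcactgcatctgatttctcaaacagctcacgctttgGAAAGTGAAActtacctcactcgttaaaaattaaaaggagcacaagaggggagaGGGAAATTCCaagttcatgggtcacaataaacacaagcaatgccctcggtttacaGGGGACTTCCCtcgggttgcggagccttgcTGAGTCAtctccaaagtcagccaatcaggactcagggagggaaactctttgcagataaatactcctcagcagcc
Cxcl2 (chr5:90903649-90903898, plus strand): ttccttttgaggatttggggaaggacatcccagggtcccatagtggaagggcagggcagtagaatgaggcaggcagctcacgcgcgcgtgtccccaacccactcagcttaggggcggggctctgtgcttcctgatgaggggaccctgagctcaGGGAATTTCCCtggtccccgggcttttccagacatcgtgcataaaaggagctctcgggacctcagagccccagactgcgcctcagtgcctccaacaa
Ccl6 (chr11:83593088-83593337, minus strand): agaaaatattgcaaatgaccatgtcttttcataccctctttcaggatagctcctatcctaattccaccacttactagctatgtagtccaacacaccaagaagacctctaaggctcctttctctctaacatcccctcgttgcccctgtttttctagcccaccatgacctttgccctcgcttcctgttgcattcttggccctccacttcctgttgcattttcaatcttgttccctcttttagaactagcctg
The Cxcl10 window held all 3 motifs: the interferon core from 213 to 204 bases before the start, kappaB matches from 159 to 150 and from 104 to 94, and AP-1 from 74 to 68. The Cxcl2 window held a kappaB match from 97 to 87 bases before the start. In Ccl9, an AP-1 match lay from 53 to 47 and a kappaB match from 35 to 26 bases before the start. Ccl6 and Ccl3 held none of these letters in the window. Of 32851 mouse promoter windows of the same length, 7.25% held the kappaB consensus, 2.98% the interferon core and 6.75% the AP-1 motif. A match is a description of the letters. Of the 3 windows with a match, Cxcl10 and Ccl9 rose and Cxcl2 did not pass; of the other 2, Ccl6 rose and Ccl3 did not pass.

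Of 28 other chemokine genes listed, 21 had a row and 10 enough counts to test. Among these 10, 1 was higher and 5 were lower, beside 17.4% higher and 17.3% lower of all tested genes. The 1 that rose was Xcl1, a lymphocyte chemokine (0.811 ± 0.232 against 0.162 ± 0.104 CPM, SD). Its log2 fold change of 2.28 ± 0.45 (adjusted p = 0.00353, edgeR) rests on only 1.0 to 21.0 estimated counts per library. The 5 that fell were the platelet chemokines Ppbp (21.0 ± 6.74 against 94.0 ± 18.8 CPM; -2.16 ± 0.26; adjusted p = 0.000605) and Pf4 (34.8 ± 11.2 against 78.4 ± 9.77 CPM; -1.17 ± 0.20), and Cxcl5 (-1.24 ± 0.28), Cx3cl1 (-1.30 ± 0.32) and Cxcl12 (-1.38 ± 0.42). Leaving out D replicate 2, M replicate 2 or M replicate 4 ended the call of Cxcl12 (adjusted p up to 0.0857 over its alternatives). The median of the 10 tested genes was -1.08. Platelet markers fell beside Ppbp and Pf4 (6 of 6), and the part of platelet-lineage RNA in their change was not tested. Cxcl9, the neighbour of Cxcl10 and likewise a CXCR3 ligand, had 8.28 estimated counts over all libraries and was not tested.

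Receptors of the members were measured in the same RNA. Of 24 receptor genes 17 were tested, 7 higher and 3 lower, 34.7% of all tested genes being called either way, with a median of 0.17. Ccr2, the receptor of Ccl2 and Ccl7, stood at 215 ± 33.8 against 105 ± 16.2 CPM (1.03 ± 0.14; adjusted p = 0.000442, edgeR), and it is also 1 of the inflammatory monocyte markers. Ccr1, the receptor of Ccl3, Ccl5, Ccl6 and Ccl9, stood at 452 ± 103 against 255 ± 41.9 CPM (0.83 ± 0.18; adjusted p = 0.00600). Cxcr2, that of Cxcl2, is also a neutrophil marker and stood at 826 ± 199.8 against 397 ± 104 CPM (1.06 ± 0.23; adjusted p = 0.00766). Cxcr3, that of Cxcl10, did not pass (11.9 ± 2.14 against 8.67 ± 2.23 CPM; 0.46 ± 0.19; adjusted p = 0.0806), but passed without M replicate 2 and with the test of DESeq2 (adjusted p = 0.0385 to 0.230 over its alternatives). Cxcr6, that of Cxcl16, rose by 0.92 ± 0.29 (5.93 ± 2.79 against 3.13 ± 0.497 CPM; adjusted p = 0.0332), but the call ended in 11 of 21 alternatives, among them those without any 1 of D replicates 2, 3 and 4 or M replicates 1, 3 and 4. Ccr3 (2.27), Ccr6 (1.16) and Cxcr1 (3.13) were the other 3 that rose on the log2 scale, and Ccr7 (-1.10), Ccr9 (-1.15) and Cxcr5 (-0.90) were those that fell. The call of Ccr9 ended without D replicate 2 or any 1 M library (adjusted p up to 0.142 over its alternatives).

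Target genes of the interferon and NF-kB pathways were counted in the same way. Of 25 interferon target genes 23 were tested and 20 rose (17.4% of all genes did), with a median of 1.16, and the other 3 did not pass. Among those with the lowest p were the RNA sensor Ifih1 (27.6 ± 4.83 against 12.4 ± 1.52 CPM; 1.16 ± 0.14), the nucleic acid sensor Zbp1 (13.1 ± 4.45 against 4.04 ± 1.04 CPM; 1.70 ± 0.25) and the antiviral Ifit2 (26.4 ± 7.93 against 10.5 ± 1.85 CPM; 1.33 ± 0.21). Of 22 NF-kB target genes, with a median of 0.14, 6 rose and 3 fell, beside 17.4% higher and 17.3% lower of all tested genes. Those with the lowest p were the inhibitor Nfkbie (17.9 ± 2.52 against 44.4 ± 5.40 CPM; -1.31 ± 0.12), the adaptor Traf1 (11.4 ± 2.11 against 6.62 ± 1.02 CPM; 0.78 ± 0.16), the receptor Cd40 (2.17 ± 0.821 against 5.06 ± 0.623 CPM; -1.22 ± 0.26) and the cytokine Tnf (33.9 ± 3.32 against 22.9 ± 3.74 CPM; 0.57 ± 0.12). The third that fell, Il1a, lost its call without any 1 of 6 libraries, all but D replicate 4 and M replicate 3 (adjusted p up to 0.226 over its alternatives). Also called higher were Il1b (1.77 ± 0.50 on the log2 scale), Ptgs2 (1.03 ± 0.31), Nfkbiz (0.42 ± 0.10) and Tnfaip2 (0.29 ± 0.09). In that order, their calls ended in 4, 9, 2 and 10 of 21 alternatives.

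Of 16 genes that act on chemokines after transcription, 4 rose and 4 fell, beside 17.4% higher and 17.3% lower of all tested genes, with a median of 0.07. The proteoglycans Sdc4 (15.8 ± 3.93 against 57.7 ± 6.29 CPM; -1.87 ± 0.17) and Sdc1 (10.8 ± 1.96 against 25.2 ± 1.59 CPM; -1.23 ± 0.13), which bind chemokines at the cell surface, fell. So did Dpp4 (18.5 ± 6.68 against 51.5 ± 4.80 CPM; -1.48 ± 0.23), a peptidase that trims chemokines. The gelatinase Mmp9, also a product of neutrophils, rose (2229 ± 519 against 1239 ± 91.1 CPM; 0.85 ± 0.15). Among the factors that promote decay of AU-rich or stem-loop transcripts, Zfp36l2 (0.31) and Rc3h2 (0.43) rose and Zfp36l1 (-0.48) fell, and the sheddase Adam17 (0.29) rose.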

How the data were processed

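Polyadenylated RNA libraries were analysed for 8 of 14 samples, 4 D and 4 M. Per the submitters' processing notes, reads were handled with SOAPnuke 1.5.6 and an aligner written HISTA2 2.1.0 on mm10 (GRCm38). The sources used here give no quantifier, annotation release or strand setting. Per the file headers, the authors deposited estimated counts per transcript (60072 transcripts, 37.3% to 40.8% of values whole) and TPM; 24 further columns of per-sample values or means were not used. Estimated counts were summed per gene, rounded and filtered with edgeR's filterByExpr (minimum count 10, total 15), leaving 12839 genes. Groups were compared in R 4.3.3 with edgeR 4.0.16 (quasi-likelihood, TMM, robust, no covariate), with Benjamini-Hochberg adjustment at 0.05. The biological coefficient of variation was 12.4%. CPM use TMM-scaled library sizes. Ratios of TPM were tested with exact permutation tests in SciPy. Motifs and alignments were computed with Biopython on GENCODE M21 and RefSeq sequences. Scripts were tested on simulated data.

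The members and lists were chosen with earlier results of these data known. Text names all 10 members, the receptors of the members, the up to 4 called genes of lowest p per list, neighbours in the gene clusters, and the 2 genes most like each member; further genes were named after their values were seen, and some items are not reported here. Rigi was matched as Ddx58. Pairing was checked on each library's deviations from its group mean: libraries 1 to 4 of D correlated with their namesakes of M at 0.115, 0.131, 0.118 and 0.182, and other pairs at -0.178 to 0.0735. Each namesake value exceeds 0.1, although the labels do not define the numbers. The main tests of genes and of ratios were unpaired. The numbers served as pairs only in alternatives, namely the replicate block and the sign-flip test of the ratios. Alternatives covered DESeq2 1.42.0, limma 3.58.1 (voom, and log2(TPM + 1) and log2(TPM + 0.1)), other factors and filters, the most abundant transcript, a replicate block and each library left out. A fit without D replicates 1 and 3 was added after the data were seen.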

Additional observations from a re-analysis of the deposited data

Results flagged for a closer look

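One value was set apart by a test for a lone sample within a group of 4. Cxcl2 stood at 29.46 TPM in D replicate 2, and the gap to the next D library took a share of the group's range above the 95% critical value of Dixon's test. The other D libraries held 14.65 to 16.47 TPM, and M replicate 2, which shares its number, was highest in its own group at 26.25 TPM. The test was applied to 40 groups, and chance gives about 1 in 20.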

How the results depend on the processing

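The 6 called members kept their direction and call under all 21 alternatives (log2 fold change 1.33 to 1.68 for Ccl2, 1.22 to 1.48 for Ccl5, 1.57 to 1.98 for Ccl6, 2.05 to 2.52 for Ccl7, 0.62 to 0.83 for Ccl9 and 1.33 to 2.05 for Cxcl10). With the replicate block 7 members were higher, Ccl3 being added (0.26, adjusted p = 0.0386). The block changed no other call of a named chemokine, receptor or pathway gene, nor that of Wfdc17. Cxcl16 (-0.23 to 0.11 with 1 library left out) turned to 0.11, 0.03 and 0.08 without D replicate 1, D replicate 3 and M replicate 2, and to 0.29 without D replicates 1 and 3, which was chosen after seeing the data. The ratio of Ccl7 to Ccl2 lay at 0.67 to 0.89 and that of Ccl9 to Ccl6 at -1.18 to -0.77 when 1 library was left out, and both stayed at 0.80 and -0.98 under the replicate block. Their adjusted p was then 0.0857 and 0.188, since fewer samples or pairs cannot give a smaller one. The most abundant transcript alone left 2052 genes called (1088 higher and 964 lower), 6 receptors and 2 NF-kB targets; the cause was not tested. It also ended the calls of Cx3cl1, Ccr3, Ccr6, Ccr9, Cxcr5, Cxcr6, Traf1, Cd40, Tnf, Nfkbiz, Tnfaip2, Ptgs2, Il1a, Ifit2, Rc3h2 and Adam17. All 3 TPM settings ended those of Zfp36l2, Adam17, Tnfaip2 and Cxcr6, and unfiltered log2(TPM + 1) also those of Ccr6, Cxcl12, Nfkbiz, Ptgs2 and Wfdc17. The fit without D replicates 1 and 3 ended those of Cx3cl1, Cxcl12, Ptgs2 and Il1a. A filter of 50 counts left 2 of the other chemokines called, fewer genes being tested. With 1 library left out 5 to 11 NF-kB targets passed, 5 of them without M replicate 4. Among the members, the lowest counts in a single library were those of Cxcl10 (21.0), Ccl7 (35.0) and Cxcl16 (40.0), which limits the precision of their values.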
